A study of Homo sapiens with 18 samples.

Results

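The Sprouty and SPRED feedback inhibitors were followed by mRNA sequencing in head and neck squamous cell carcinoma (HNSCC) cells stimulated with hepatocyte growth factor (HGF), the ligand of the receptor tyrosine kinase MET. The members were taken by gene name from the count table: SPRY1, SPRY2, SPRY4, SPRED1, SPRED2 and SPRED3, which are 6 of the 19901 genes listed. All 6 were among the 15475 genes that passed the filter on low counts. The Sprouty gene SPRY3 was not a member and is given with other feedback genes. The cells were the established lines Detroit 562, FaDu and SCC-9. SCC-9 is a tongue carcinoma line and FaDu a hypopharyngeal one, both of primary origin, whereas Detroit 562 was derived from metastatic pharyngeal carcinoma cells. Each line was left untreated (control) or given 50 ng/mL HGF, with 3 libraries per group and 18 in all. The sample records and the study's methods for mRNA sequencing give a treatment of 16 h, while the series record gives 48 h. No knockout, transgene or inhibitor was involved in these libraries, and all groups were grown as adherent cultures of unsorted cells. The medium of Detroit 562 and FaDu was MEM-α, while SCC-9 grew in DMEM F12 that held 400 ng/mL hydrocortisone, so that medium and line cannot be told apart in comparisons with SCC-9. Each line stands for 1 tumor. The methods state that the experiment was repeated, and no label names separate cultures, so the p values measure the spread between these libraries, which may be technical.

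Sprouty and SPRED proteins are brakes on the pathway that runs from receptor tyrosine kinases through RAS, RAF, MEK and ERK. Both families share a cysteine-rich Sprouty domain that brings them to membranes, and SPRED proteins carry in addition an EVH1 domain, through which SPRED1 binds neurofibromin (NF1), the enzyme that switches RAS off. Several of these genes are transcribed in response to ERK activity itself, so that the pathway makes its own inhibitor, and their mRNA is often read as a mark of pathway output.

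Promoter sequences are shown for SPRY2, SPRY1, SPRY4 and SPRED3, whose responses to HGF were not tested against each other. The RefSeq table (GRCh38.p14) held 11 promoter windows for the 6 members, each read over the 250 bases before a transcript start. Motifs of factors that act below ERK were searched on both strands. The ETS core CCGGAA was found in 2 of the 11 member windows, of SPRY1 and SPRY2, and in 14.53% of all 35116 windows. The AP-1 motif TGACTCA was found in 1 of the 11, of SPRED3, and in 4.203% of all windows. TGACG, a half-site of the cyclic AMP response element, was found in 2 of the 11, of SPRY2 and SPRY4, and in 21.22% of all. The CArG box of serum response factor was found in no member window and in 1.159% of all windows. The motifs do not overlap in the stretches shown, a match describes letters only, and binding was not measured. The first sequence lies before the most upstream start of SPRY2 (chr13:80341127-80341376, minus strand), with TGACG and CCGGAA in capitals. The second lies before the most upstream start of SPRY1 (chr4:123396545-123396794, plus strand), whose adjusted p with HGF was above 0.1 in every line, and holds none of these motifs. The other SPRY1 window, which overlaps an annotated exon and is not shown, holds CCGGAA. The windows of SPRED1 and SPRED2, and the other windows of SPRY2 and SPRED3, held none of the motifs. SPRED1 and SPRED2 were higher with HGF in all 9 same-numbered pairs, as were 7.7% of all genes. A link between motif and response was not tested. The third sequence is a short stretch around TGACG of SPRY4 (chr5:142324299-142324328, minus strand). The fourth is a short stretch around TGACTCA of SPRED3 (chr19:38389719-38389748, plus strand).
SPRY2: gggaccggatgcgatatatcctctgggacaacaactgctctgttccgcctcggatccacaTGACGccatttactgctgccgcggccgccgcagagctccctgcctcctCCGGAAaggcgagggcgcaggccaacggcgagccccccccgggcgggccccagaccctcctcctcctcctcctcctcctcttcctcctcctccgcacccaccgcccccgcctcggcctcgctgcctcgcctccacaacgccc
SPRY1: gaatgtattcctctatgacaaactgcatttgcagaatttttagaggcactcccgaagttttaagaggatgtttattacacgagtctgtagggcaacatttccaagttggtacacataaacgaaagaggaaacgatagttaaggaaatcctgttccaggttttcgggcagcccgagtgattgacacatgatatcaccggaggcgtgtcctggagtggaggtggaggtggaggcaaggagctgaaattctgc
SPRY4: ctcttcggagccgTGACGgactgaattccc
SPRED3: cccgttgctgggTGACTCAgtgagctttgc

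Total counts per library ranged from 35304770 to 44003970. The squamous character of the lines was checked on KRT5, KRT6A, KRT14, KRT17, TP63, CDH1 and EPCAM, which were detected in every group, although KRT14, the basal keratin, had a mean of only 49.3 normalized counts in untreated Detroit 562 against 15684 in FaDu and 116795 in SCC-9. With HGF, KRT5 (log2 fold change -0.90, adjusted p = 0.0451) and CDH1 (-0.49, adjusted p = 0.00364) fell in Detroit 562, a line where members were called. The other markers were not called there, with TP63 at -0.37, KRT14 at -0.20, KRT6A at 0.01, KRT17 at 0.10 and EPCAM at 0.21. KRT5 also fell in FaDu with the replicate number as a block (-0.58, adjusted p = 0.00147). Among 5 markers of other cells, PTPRC (leukocytes), PECAM1 (endothelium) and PDGFRB (fibroblasts) summed to between 2.28 and 30.5 normalized counts in any library, with PDGFRB at 0 in all Detroit 562 libraries. The collagen gene COL1A1 was measurable in every line. COL1A2 was measurable in Detroit 562 and SCC-9 but near absent in FaDu (log2 fold change 10.28, untreated Detroit 562 against untreated FaDu). COL1A1 fell with HGF in FaDu with the block (-0.59, adjusted p = 0.00298). Both collagen genes fell with HGF in Detroit 562, where the sum of the 5 markers was 1197 to 2182 in control and 604 to 1118 in HGF-treated libraries. In FaDu this sum was 163 to 283 in control and 142 to 197 with HGF, and in SCC-9 it was 3061 to 3926 and 2381 to 3204. Their part in the results was not tested.

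Normalized counts are counts scaled by TMM factors to a common library size, and differences were tested by edgeR's quasi-likelihood method, with p values adjusted by Benjamini-Hochberg over the 15475 genes. Calls required an adjusted p under 0.1 and a log2 fold change that reached 0.4 in size. In Detroit 562, 4 of the 6 members rose with HGF (SPRY2, SPRY4, SPRED1 and SPRED3), beside 17.9% of all genes called in either direction. Of all 15475 genes, 954 were called up there and 1812 down. The members had a median log2 fold change of 0.72 against -0.01 for all genes. In FaDu and SCC-9 no member was called without a replicate term in the model, beside 0.0258% and 0% of all genes. Even so, 4 members in each line had an unadjusted p below 0.05. In FaDu 1247 of all genes did so. DESeq2 called 1 member in FaDu, SPRY4, beside 66 of all genes with its prior and 64 without. In SCC-9 641 of all genes had an unadjusted p below 0.05, and 19 genes were called there by DESeq2 with its prior on fold changes, no member among them. When the replicate number was added as a block within each line, so that each HGF library was read against the control with the same number, 4 members were called in Detroit 562, 2 in FaDu (SPRY2 and SPRY4) and 2 in SCC-9 (SPRY4 and SPRED3). The shares of all genes called in that blocked fit were 21.5%, 5.6% and 1.97%. No member fell in any line in either fit. The Sprouty gene SPRY3, which is not among the members, fell in Detroit 562 with the block.

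**Figure D1:**
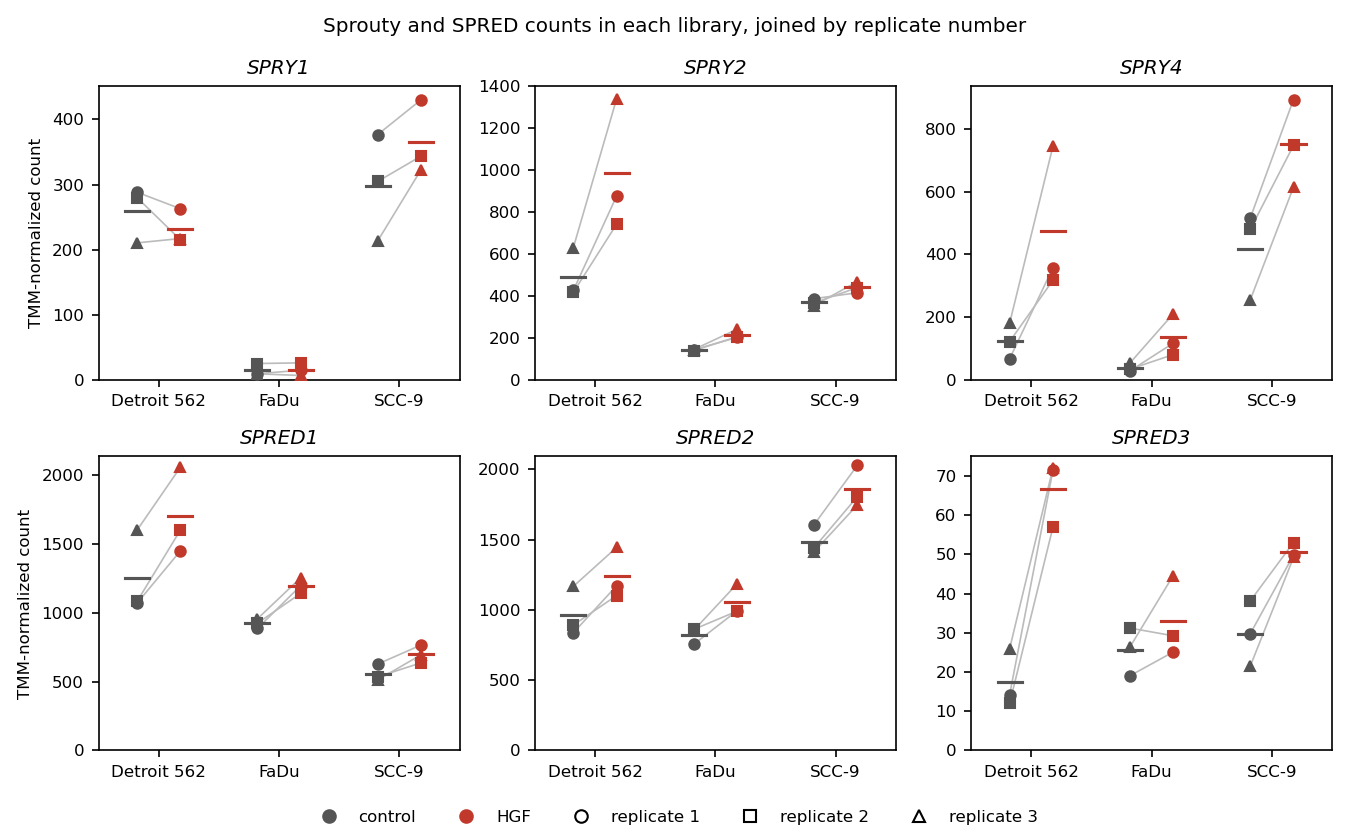
TMM-normalized counts of the 6 members (vertical axes, each from 0) in the 3 cell lines, control in gray and HGF in red, with 1 symbol per library, lines joining libraries of the same replicate number and bars for group means. SPRY2, SPRY4, SPRED1 and SPRED2 were higher with HGF in all 9 joined pairs, while SPRY1 was higher in 6.

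SPRY4 was the member with the largest change in FaDu and SCC-9. SPRY4 encodes a Sprouty protein that restrains RAS activation downstream of growth factor receptors, and its gene lies at chr5:142310427-142326455 on the minus strand (GRCh38). In Detroit 562, SPRY4 had 67.1, 122 and 180.3 normalized counts in control libraries 1, 2 and 3, and 357, 318 and 744 in the HGF libraries. All HGF libraries lay above all control libraries, and replicate 3 was the highest of each group. The log2 fold change was 1.95 (SE 0.413, adjusted p = 0.00433), a 3.85-fold increase. In FaDu, SPRY4 had 28.6, 34.2 and 53.6 normalized counts in control libraries and 117, 80.7 and 210.5 with HGF. The groups again did not overlap, from a control level lower than in Detroit 562. In this line the log2 fold change was 1.80 (SE 0.476), with an adjusted p of 0.413 from edgeR without the replicate term and 0.000256 with the block. In SCC-9 the control libraries held 515, 479 and 254 normalized counts of SPRY4, and the HGF libraries 893, 747 and 614. The untreated level was the highest of the 3 lines, replicate 3 was now the lowest of each group, and the groups did not overlap. SPRY4 in SCC-9 had a log2 fold change of 0.85 (SE 0.379), with an adjusted p of 1 without the replicate term and, for a log2 fold change of 0.88, 0.00314 with the block.

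SPRY2, at chr13:80335976-80340951 on the minus strand, encodes the best studied Sprouty, which binds GRB2 and the ubiquitin ligase CBL. In Detroit 562, SPRY2 had 427, 418 and 632 normalized counts in control libraries and 878, 743 and 1342 with HGF. The lowest HGF library was above the highest control library. SPRY2 rose by a log2 fold change of 1.00 (SE 0.182, adjusted p = 0.00203), a 2.01-fold increase. In FaDu, SPRY2 had 144, 140.0 and 145 normalized counts in control and 203, 206 and 241 in HGF libraries, and these controls had the smallest SD relative to their mean of any member and line. Its log2 fold change there was 0.60 (SE 0.198), with an adjusted p of 0.519 without and 0.0016 with the block. In SCC-9, SPRY2 had 387, 367 and 355 normalized counts in control and 416, 440.3 and 469 with HGF. The groups did not overlap, but the gap between them was small. Its log2 fold change of 0.26 (SE 0.184) was not called in either fit, with an adjusted p of 1 without and 0.121 with the block.

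SPRY1, at chr4:123396795-123403760 on the plus strand, encodes another Sprouty that acts on the same pathway, and its adjusted p with HGF was above 0.1 in every line and fit. In Detroit 562, SPRY1 had 288, 279.9 and 211 normalized counts in control and 263, 215 and 217 with HGF. The groups overlapped, and the HGF mean was slightly the lower of the pair. The log2 fold change was -0.16, with a 95% interval from -0.74 to 0.41 (adjusted p = 0.7). In FaDu, SPRY1 was close to the limit of detection, with 9.52, 25.2 and 9.41 normalized counts in control and 14.9, 26.2 and 6.79 with HGF. No difference could be detected at that depth, and the interval of the log2 fold change ran from -0.87 to 1.12. In SCC-9, SPRY1 had 377, 305 and 214 normalized counts in control and 430.3, 344 and 323 with HGF. All 3 same-numbered pairs were higher with HGF, but the groups overlapped. The log2 fold change was 0.29 (SE 0.266), with an adjusted p of 1 without and 0.153 with the block.

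SPRED1 and SPRED2, the SPRED genes with the highest levels in these cells, had small log2 fold changes in the 3 lines. SPRED1 lies at chr15:38252326-38357249 on the plus strand, and its loss in the germline causes Legius syndrome. In Detroit 562, SPRED1 had 1071, 1084 and 1601 normalized counts in control and 1450.3, 1601 and 2058 with HGF. The highest control library lay above the lowest HGF library, so that the groups overlapped, although each pair was higher with HGF. SPRED1 rose by a log2 fold change of 0.44 (SE 0.145, adjusted p = 0.0348), just past the minimum fold. The call was lost when control replicate 1, control replicate 2 or HGF replicate 3 was left out, with log2 fold changes of 0.34, 0.35 and 0.29. In FaDu, SPRED1 had 886, 924 and 956 normalized counts in control and 1197, 1141 and 1255 with HGF. In SCC-9 it had 627, 535 and 512 in control and 766, 636 and 695 with HGF. The groups did not overlap in either of these lines. The log2 fold changes of SPRED1 were 0.38 (SE 0.146) in FaDu and 0.32 (SE 0.15) in SCC-9, below the minimum fold, with adjusted p values of 0.572 and 1 without and 0.00103 and 0.0118 with the block.

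SPRED2, whose protein also inhibits activation of RAF, lies at chr2:65310851-65432637 on the minus strand. In Detroit 562, SPRED2 had 837, 892 and 1167 normalized counts in control and 1172, 1102 and 1444 with HGF, with an overlap between control replicate 3 and HGF replicate 2. In FaDu it had 754, 861 and 854 in control and 993, 990.0 and 1184 with HGF, and in SCC-9 1605, 1441 and 1412 in control and 2027, 1804 and 1745 with HGF. The groups were separate in FaDu and SCC-9, and the 9 pair ratios lay between 1.15 and 1.4. Fitted log2 fold changes of SPRED2 were 0.36 (SE 0.126, adjusted p = 0.0457) for Detroit 562, 0.36 (SE 0.126, adjusted p = 0.537) for FaDu and 0.32 (SE 0.124, adjusted p = 1) for SCC-9. All were under the minimum fold, and the blocked fit gave adjusted p values of 0.000217, 0.00192 and 0.00698 for much the same fold changes. Without Detroit 562 control replicate 3 or HGF replicate 2, SPRED2 was called in that line, at log2 fold changes of 0.52 and 0.44. With each of the 6 Detroit 562 libraries left out in turn, its log2 fold change ran from 0.24 to 0.52. The adjusted p of SPRED2 then ran from 0.00498 to 0.218.

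SPRED3, at chr19:38388421-38399587 on the plus strand, encodes the least studied SPRED and was the member with the fewest counts in Detroit 562 and SCC-9. In Detroit 562, it had 14.2, 11.98 and 25.9 normalized counts in control and 71.4, 56.9 and 72.0 with HGF. The groups were far apart for so low a gene. SPRED3 rose by a log2 fold change of 1.94 (SE 0.302, adjusted p = 0.000974), or 3.84-fold, and kept its call whichever Detroit 562 library was left out. In FaDu, SPRED3 had 19.0, 31.2 and 26.4 normalized counts in control and 25.1, 29.2 and 44.6 with HGF. These groups overlapped, and in replicate 2 the HGF library was the lower. SPRED3 had a log2 fold change of 0.37 in FaDu (SE 0.298, adjusted p = 0.731), with an interval from -0.26 to 1.00. In SCC-9, SPRED3 had 29.7, 38.1 and 21.5 normalized counts in control and 49.8, 53.0 and 49.2 with HGF. The groups did not overlap. In SCC-9 the fitted change was 0.76 on the log2 scale (SE 0.283), with an adjusted p of 1 without and, at 0.77, 0.0944 with the block.

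**Figure D2:**
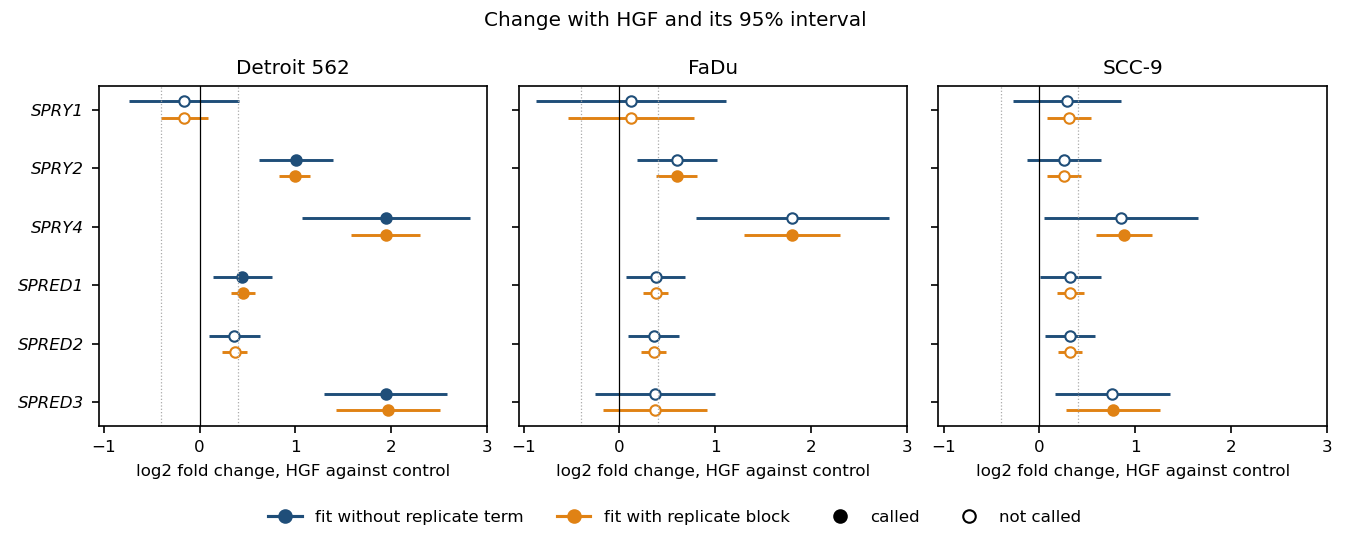
Log2 fold change of each member with HGF (horizontal axis) in the 3 lines, with 95% intervals, from the edgeR fit without a replicate term (blue) and with the replicate block (orange), where filled points were called and dotted lines mark the minimum of 0.4. The estimates were nearly the same in both fits, and the intervals were narrower with the block in each line.

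Counted over libraries, every HGF library lay above every control library for 3 members in Detroit 562, 4 members in FaDu and 5 of the 6 in SCC-9, beside 18.1%, 4.05% and 8.3% of all genes. In these 12 cases the two-sided exact permutation test of 3 against 3 libraries gave p = 0.1. Separate groups always give this value, the smallest possible, so it adds nothing to the separation. In the other cases p was 0.2 to 0.9. Over the 9 same-numbered pairs, SPRY2, SPRY4, SPRED1 and SPRED2 were higher with HGF in all 9, SPRED3 in 8 and SPRY1 in 6, where 7.7% of all genes were higher in all 9. Averaged over the lines, SPRY2 (log2 fold change 0.62, adjusted p = 0.00322), SPRY4 (1.53, adjusted p = 0.00235) and SPRED3 (1.02, adjusted p = 0.00267) were called. The share of all genes called was 6.89%, with 312 up and 755 down, and 8.8% in the blocked fit. SPRED1 and SPRED2 had average log2 fold changes of 0.38 and 0.35, with adjusted p values of 0.00856 and 0.00641, under the minimum fold. An average does not show a change in each line. Without Detroit 562 control replicate 3, all of these 5 members were called on average, at 0.45 for SPRED1 and 0.40 for SPRED2. Leaving out Detroit 562 HGF replicate 1, SCC-9 control replicate 1 or SCC-9 HGF replicate 2 also let SPRED1 pass on average, at 0.42, 0.42 and 0.41.

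The difference between the responses of 2 lines was tested in the same fits, at an adjusted p below 0.1 with no minimum fold. Between Detroit 562 and FaDu no member differed without the replicate term, beside 0.239% of all genes, and 1 member, SPRED3, had an unadjusted p below 0.05, as did 1788 of all genes. SPRED3 had the largest difference, 1.57 on the log2 scale (95% interval 0.67 to 2.48, adjusted p = 0.197), and it was called by DESeq2 with its prior at 1.51 (adjusted p = 0.0654), without its prior at 1.57 (adjusted p = 0.0674), and with the block at 1.60 (adjusted p = 0.0125). DESeq2 called 270 of all genes with its prior and 261 without. SPRY2 differed with the block, by 0.39 (adjusted p = 0.0577), where 19.1% of all genes were called. SPRY4, with large fold changes in both lines, differed by 0.14, with an interval from -1.22 to 1.4996, and by an interval from -0.52 to 0.80 with the block. Without Detroit 562 control replicate 3, SPRED3 passed in the fit with no replicate term, at 1.97 (adjusted p = 0.042).

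Between Detroit 562 and SCC-9 no member differed without the replicate term, beside 0.924% of all genes, though SPRY2 and SPRED3 were among the 2378 genes with an unadjusted p below 0.05. DESeq2 called no member, beside 649 of all genes with its prior and 648 without. With the block the responses of 4 members differed, beside 26.9% of all genes. The Detroit 562 response was the larger for SPRY2 by 0.74 (adjusted p = 0.000642), SPRY4 by 1.06 (adjusted p = 0.00446) and SPRED3 by 1.19 (adjusted p = 0.0287), and the lower for SPRY1, by -0.47 (adjusted p = 0.0498). Without Detroit 562 control replicate 3, SPRY2 (0.97, adjusted p = 0.0423) and SPRED3 (1.57, adjusted p = 0.0519) passed without the block. Between FaDu and SCC-9 no member differed in either fit, beside 0% and 1.32% of all genes called. In the fit without the block 337 of all genes and no member had an unadjusted p below 0.05 there, and DESeq2 with its prior called 5 genes, none a member. The interval for SPRY4 still ran from -0.33 to 2.24. For SPRED2 the differences between lines were 0.00 (interval -0.38 to 0.38), 0.04 (-0.34 to 0.41) and 0.04 (-0.34 to 0.41), and for SPRED1 0.07 (-0.37 to 0.50), 0.12 (-0.32 to 0.56) and 0.05 (-0.39 to 0.50), in the order Detroit 562 minus FaDu, Detroit 562 minus SCC-9 and FaDu minus SCC-9. The comparisons of Detroit 562 with the other two lines share the Detroit 562 libraries.

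Before treatment the lines differed widely in the Sprouty genes, as they did in most genes. FaDu held the least SPRY1, SPRY2 and SPRY4 of the 3 lines, and SCC-9 the most SPRY4 and SPRED2. Between untreated Detroit 562 and FaDu 4 members were called, all higher in Detroit 562, beside 61% of all genes. SPRY1 was 17.7-fold higher (log2 fold change 4.15, SE 0.36, adjusted p = 1.92e-08), SPRY2 3.44-fold (adjusted p = 3.5e-07) and SPRY4 3.14-fold (adjusted p = 0.00554). SPRED1 was 1.36-fold higher (adjusted p = 0.0128) and fell to a log2 fold change of 0.23 without Detroit 562 control replicate 3. SPRED2 (log2 fold change 0.23, adjusted p = 0.113) and SPRED3 (-0.56, adjusted p = 0.132) were not called, and SPRED3 passed without Detroit 562 control replicate 3 at -0.95 or without FaDu control replicate 1 at -0.73.

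Untreated SCC-9 was called against Detroit 562 for 5 members, beside 65.4% of all genes. Detroit 562 was 3.4-fold lower in SPRY4 (adjusted p = 0.00093), 1.54-fold lower in SPRED2 (adjusted p = 0.000253) and 1.72-fold lower in SPRED3 (adjusted p = 0.0341), and 2.24-fold higher in SPRED1 (adjusted p = 2.02e-06). SPRY2 was 1.33-fold higher in Detroit 562 (adjusted p = 0.0513), a call that was lost with the block shared by the lines, with upper-quartile scaling, and without Detroit 562 control replicate 3 (log2 fold change 0.19) or SCC-9 control replicate 3 (0.39). The SPRED3 call was lost without Detroit 562 control replicate 1 (-0.65), Detroit 562 control replicate 2 (-0.59) or SCC-9 control replicate 2 (-0.56). SPRY1 did not pass (log2 fold change -0.20, interval -0.77 to 0.37). Against SCC-9, FaDu was 20.4-fold lower in SPRY1 (adjusted p = 9.11e-09), 10.7-fold in SPRY4 (adjusted p = 4.08e-06), 2.59-fold in SPRY2 (adjusted p = 7.23e-06) and 1.81-fold in SPRED2 (adjusted p = 1.08e-05), and 1.65-fold higher in SPRED1 (adjusted p = 0.000327). These are 5 members beside 64.2% of all genes, and SPRED3 did not pass (adjusted p = 0.506). In bulk RNA, fewer cells with a transcript and less of it per cell cannot be told apart.

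Levels of different genes were compared as normalized counts per kilobase of exon (GENCODE 44). SPRED2 had the highest level in untreated Detroit 562, at 175 ± 32.1 (SD, n = 3), followed by SPRED1 at 162 ± 39.0 and SPRY2 at 153 ± 37.6, which overlapped each other. SPRY1 (65.5 ± 10.8), SPRY4 (18.8 ± 8.64) and SPRED3 (2.96 ± 1.28) followed, each below the libraries of the one before. With HGF, SPRY2 had the highest mean, 307 ± 97.7, with libraries that overlapped those of SPRED2 (225 ± 32.9), and SPRY4 reached 72.2 ± 36.0, overlapping SPRY1 at 58.5 ± 6.82.

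In untreated FaDu the per-kilobase order was SPRED2 (149 ± 10.9), SPRED1 (119 ± 4.52), SPRY2 (44.5 ± 0.809), SPRY4 (5.92 ± 2.01), SPRED3 (4.35 ± 1.05) and SPRY1 (3.71 ± 2.29), where only the last 3 overlapped with a neighbor. After HGF the order was the same, at 192 ± 20.2, 155 ± 7.34, 67.4 ± 6.72, 20.8 ± 10.2, 5.62 ± 1.75 and 4.03 ± 2.46 per kilobase. SPRY4 no longer overlapped SPRED3. In untreated SCC-9, SPRED2 led at 270 ± 18.9, with SPRY2 at 115 ± 5.17. SPRY1 (75.3 ± 20.7), SPRED1 (72.0 ± 7.88) and SPRY4 (63.5 ± 21.5) overlapped their neighbors, and SPRED3 stood at 5.08 ± 1.42. With HGF the SCC-9 levels were 338 ± 27.0 for SPRED2, 137 ± 8.21 for SPRY2, 115 ± 21.3 for SPRY4, 92.3 ± 14.4 for SPRY1, 90.2 ± 8.36 for SPRED1 and 8.64 ± 0.349 for SPRED3. Reads were counted over whole gene extents, and exons make up only 7.39% of the extent of SPRED1 and 4.52% of that of SPRED2, against 40.9% to 64.6% for the other members. The share of intronic reads in the SPRED1 and SPRED2 levels was not tested.

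**Figure D3:**
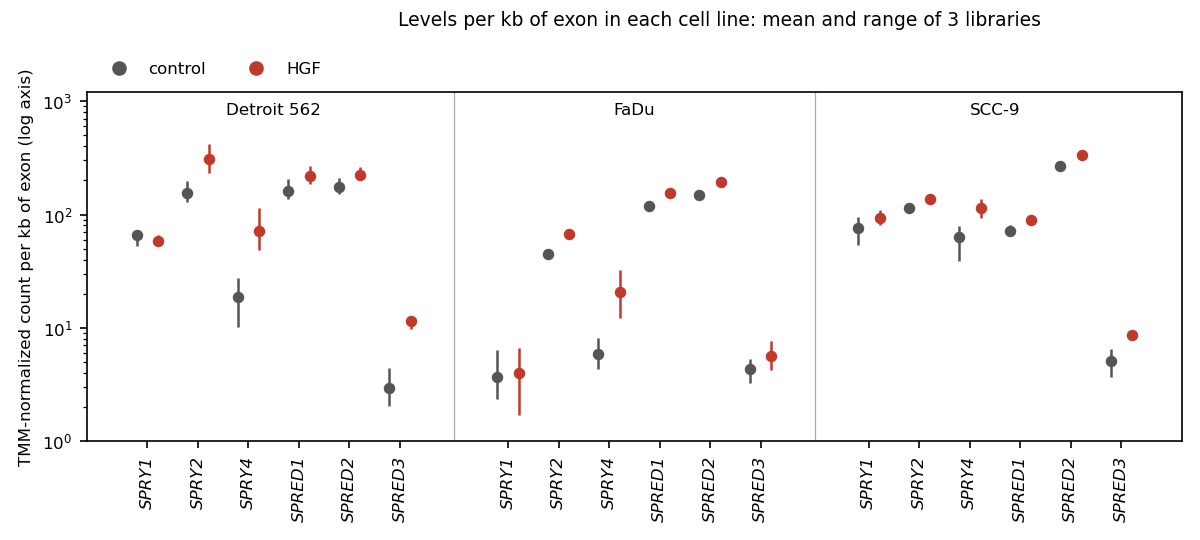
TMM-normalized counts per kilobase of exon (logarithmic vertical axis) of the 6 members in each line, with points for means and bars for the range of the 3 libraries, control in gray and HGF in red. SPRED2 had the highest mean in every group but HGF-treated Detroit 562, where SPRY2 did.

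The other genes of the pathway were counted in lists, to be read against all genes, of which 17.9%, 0.0258% and 0% were called in the order Detroit 562, FaDu, SCC-9, and 21.5%, 5.6% and 1.97% with the block. The first held 8 genes used as a readout of MEK output, with SPRY2 and SPRY4 left out of the published list they belong to. In Detroit 562, 5 of the 8 rose and none fell, with a median log2 fold change of 0.94, beside the members' 4 of 6 and 0.72. They were the ERK phosphatases DUSP6 (1.53, adjusted p = 0.000247) and DUSP4 (1.11, adjusted p = 0.0155), the ETS factors ETV5 (1.34, adjusted p = 0.00697) and ETV4 (0.76, adjusted p = 0.0212), and PHLDA1 (1.56, adjusted p = 0.00984). In FaDu only DUSP6 was called (1.44, adjusted p = 0.0115), and 6 of 8 with the block. In SCC-9 none was called without the block, and 5 of 8 with it. The medians were 0.79 in FaDu and 0.49 in SCC-9, where the members had 0.37 and 0.32. Of these 8 genes, 7 were higher with HGF in all 9 pairs, and EPHA4, an Eph receptor, in 3.

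Among 10 ERK phosphatases and other feedback genes the direction was mixed. In Detroit 562, DUSP7 (0.90, adjusted p = 0.0104), DUSP5 (0.85, adjusted p = 0.0285), DUSP2 (0.68, adjusted p = 0.0246) and IER3 (0.51, adjusted p = 0.0372) rose, and DUSP10, a phosphatase that acts mainly on p38 and JNK, fell (-0.60, adjusted p = 0.0185). The remaining Sprouty gene, SPRY3, which lies in a pseudoautosomal region, had in Detroit 562 a mean of 81.9 normalized counts without and 57.1 with HGF, a log2 fold change of -0.52. It was not called without the block (adjusted p = 0.1003) and fell with it (adjusted p = 0.0187), together with DUSP9 (-0.52, adjusted p = 0.000229). SPRY3 was at -0.00 in FaDu and -0.34 in SCC-9, with an adjusted p of 1 in both. Every HGF library lay below every control library for SPRY3 in Detroit 562 and in SCC-9, where raw counts were only 15 to 26. In FaDu 2 of the 3 pairs were higher with HGF. The share of all genes with such a separation downward was not counted. In FaDu IER3 was called (1.11, adjusted p = 0.062), with 3 genes of the list called by the block, and in SCC-9 none was, with 1 by the block, DUSP5.

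Of 11 feedback inhibitors that act on receptors, 2 rose in Detroit 562, the adaptor SH2B3 (0.65, adjusted p = 0.00579) and SOCS3 (0.81, adjusted p = 0.0354), a share near the 17.9% of all genes called there. None was called in FaDu or SCC-9. With the block 3 rose and 1 fell in Detroit 562, 1 rose in FaDu, SOCS3, and none was called in SCC-9. Of the 22 genes whose proteins bind Sprouty or SPRED proteins or share their step, none was called in any line in either fit. Their log2 fold changes lay between -0.26 and 0.35 in Detroit 562. GRB2, the adaptor bound by SPRY2, stood at 0.28 (adjusted p = 0.0052), PTPN11, the phosphatase SHP2, 0.35 (adjusted p = 0.0132), both under the minimum fold, and NF1, the partner of SPRED1, 0.04 (adjusted p = 0.755). Among 8 immediate early genes FOSL1 (1.55, adjusted p = 0.00475) and MYC (0.43, adjusted p = 0.00445) rose in Detroit 562, beside the same 17.9% of all genes. FOS (-1.48, adjusted p = 0.404), EGR1 (-0.47, adjusted p = 0.632) and JUNB (-0.45, adjusted p = 0.213) were not called there, though these 3 fell with the block (adjusted p = 3.04e-06, 0.000147 and 2.05e-05), beside 21.5% of all genes. No immediate early gene was called in FaDu or SCC-9, and with the block FOSL1 rose in FaDu (0.81, adjusted p = 0.0021) and none was called in SCC-9. Of 7 receptors, FGFR1 rose and ERBB2, FGFR2, FGFR3 and KIT fell in Detroit 562, and none was called in FaDu or SCC-9. With the block FGFR3 fell in FaDu, and FGFR2 and FGFR3 in SCC-9. MET was not called, at 0.15, 0.19 and -0.07 in the order Detroit 562, FaDu, SCC-9.

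**Figure D4:**
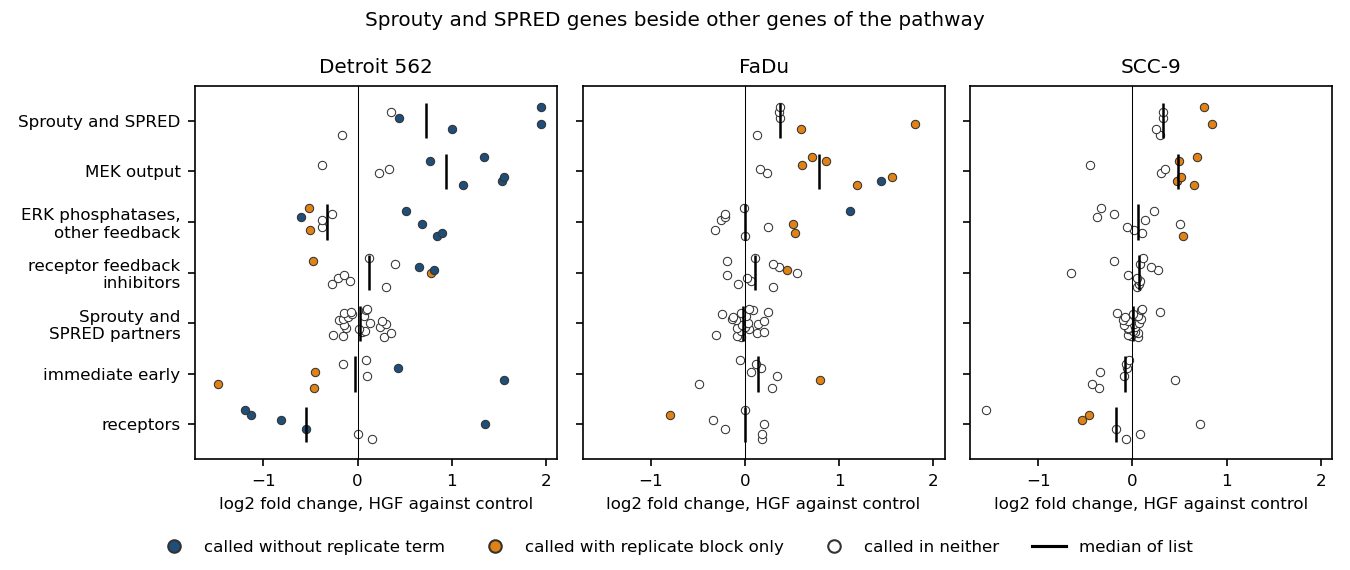
Log2 fold change with HGF (horizontal axis) of each gene of 7 lists in the 3 lines, without a replicate term, with filled blue points for genes called in that fit, orange for genes called only with the replicate block and white for neither, and vertical bars for list medians. In Detroit 562 the medians were 0.72 for the Sprouty and SPRED genes, 0.94 for the MEK output genes and 0.03 for the 22 partners.

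Across the 18 libraries, with each line centred on its mean, SPRY2, SPRY4, SPRED1, SPRED2 and SPRED3 varied together, with Pearson correlations between 0.77 and 0.95, and the highest was between SPRED1 and SPRED2. SPRY1 stood apart, with correlations between -0.15 and -0.04 with the other members. These values describe libraries that share the HGF treatment and replicate numbers, and carry no test. The genes most like SPRY4 were the ERK phosphatase DUSP4 (r = 0.975), the transporter SLCO4A1 (0.969) and the endothelial proteoglycan gene ESM1 (0.967), and those most like SPRED2 were DUSP4 (0.972), NAV3 (0.96) and the EGF receptor ligand AREG (0.95). SPRY2 was nearest to the glycogen phosphorylase gene PYGB (0.969), CLMP (0.953) and RHOC (0.95). SPRED1 was nearest to the integrin genes ITGA6 (0.958) and ITGB1 (0.957) and to LRRC8C (0.948), and SPRED3 to MAD1L1 (0.946), TBC1D24 (0.933) and ACTN1 (0.932). SPRY1 was nearest to VLDLR (0.866), LHX6 (0.864) and LOXL2 (0.862), none of which was called with HGF in any line.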

How the data were processed

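The 18 libraries were made by the authors with a stranded mRNA kit, 3 of each cell line and treatment. Per the labels and the study's methods, reads were trimmed with Cutadapt 1.16, aligned with STAR 2.5.2b to GRCh38.p12 with GENCODE 28, and counted with bedtools over whole gene extents on the gene's strand. The deposited table holds raw, unnormalized counts. Intronic reads are included, and a read in overlapping genes counts for each. No member overlaps another gene of the table on its strand. SPRY4 overlaps an antisense gene, which the stranded counting keeps apart. Total counts per library were 35304770 to 44003970.

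Tests used edgeR 4.0.16 (R 4.3.3): filterByExpr on the 6 groups left 15475 of 19901 genes, and after TMM scaling 1 quasi-likelihood model over all libraries, with a mean for each group, gave p values with Benjamini-Hochberg adjustment. The scripts were tested on simulated data. DESeq2 1.42.0 (with and without its prior), other scalings, filters and thresholds, single lines, left-out libraries and a replicate block were alternatives. The replicate numbers come from the sample titles, and the methods say that the experiment was repeated. Deviations from group means of same-numbered HGF and control libraries correlated at 0.16 to 0.56 on edgeR's log2 CPM, and at 0.0785 to 0.457 on log2(normalized count + 0.5), where 1 pair, Detroit 562 replicate 2, was under 0.1. The first scale was used to accept the pairing.

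Genes named were the 6 members, the genes of the lists that were called or whose role bears on a member, and for each member the 3 genes with the highest correlation over the libraries. The members and lists were chosen with earlier results of these data known. Promoter sequences are from RefSeq (GRCh38.p14), and loci and exon lengths from GENCODE 44.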

Additional observations from a re-analysis of the deposited data

How the results depend on the processing

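The calls of 4 members in Detroit 562, 3 on average, and 4, 5 and 5 between untreated lines (Detroit 562 against FaDu, Detroit 562 against SCC-9, FaDu against SCC-9) held to within 1.5 times under DESeq2's size factors, upper-quartile factors, no filter, a stricter filter and DESeq2. The replicate block moved the count of called members from 0 to 2 in FaDu, 0 to 2 in SCC-9, 0 to 2 for Detroit 562 minus FaDu and 0 to 4 for Detroit 562 minus SCC-9, and took 1 call, SPRY2 between untreated Detroit 562 and SCC-9 (log2 fold change 0.39). It changed no other call of a member. DESeq2 called 1 member in FaDu, SPRY4 (1.68 with and 1.82 without its prior), and 1 for Detroit 562 minus FaDu, SPRED3. With and without its prior it called 66 and 64 of all genes in FaDu, and 270 and 261 for Detroit 562 minus FaDu. With no minimum fold 5 members were called on average, beside 4366 of all 15475 genes. Under the stricter threshold (adjusted p under 0.05, fold of 2 or more) SPRED1 lost its call in Detroit 562, leaving 3 members beside 621 of all genes. SPRY2 lost its call on average, leaving 2 members beside 118 of all genes. Between untreated lines, 3 members passed for Detroit 562 against FaDu, 2 for Detroit 562 against SCC-9 and 3 for FaDu against SCC-9. All genes called between these untreated lines were 4983, 5484 and 5437. When the 6 libraries of Detroit 562 were fitted alone, SPRED1 lost its call (0.45, adjusted p = 0.124).

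The count of all genes called depended strongly on the setting: in FaDu it was 4 in the edgeR fit, 867 with the block and 66 with DESeq2 and its prior, and in SCC-9 0, 305 and 19. In Detroit 562 it was 2766, 3327 and 2751, and 621 at the stricter threshold. The cause was not tested.

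The SPRED2 difference between Detroit 562 and FaDu, near 0, changed sign to -0.0146 with DESeq2's size factors, -0.0078 with upper-quartile factors, -0.0020 without a filter, -0.00979 with the stricter filter, and -0.0145 and -0.0146 by DESeq2 with and without its prior. Leaving out 1 library at a time gave 3 to 5 called members in Detroit 562, 0 in FaDu and SCC-9, 3 to 5 on average, 0 to 1 for Detroit 562 minus FaDu, 0 to 2 for Detroit 562 minus SCC-9, and 0 for FaDu minus SCC-9. Signs changed for these differences: Detroit 562 minus FaDu ran from -0.90 to 0.25 for SPRY1, -0.34 to 0.59 for SPRY4, -0.0906 to 0.28 for SPRED1 and -0.12 to 0.16 for SPRED2. Detroit 562 minus SCC-9 ran from -0.0386 to 0.33 for SPRED1 and -0.0861 to 0.20 for SPRED2, and FaDu minus SCC-9 from -0.70 to 0.44 for SPRY1, -0.0314 to 0.13 for SPRED1 and -0.0425 to 0.11 for SPRED2. SPRY1 ran from -0.41 to 0.74 in FaDu, from -0.0939 to 0.29 on average and from -0.39 to 0.00655 between untreated Detroit 562 and SCC-9. The values of SPRY1 in FaDu and of SPRED3 rest on few reads, with raw counts of 7 to 26 and 11 to 72.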
